A study of Mus musculus with 6 samples.

Results

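The Slc22 and Slc17 genes encode carriers of organic anions, organic cations, carnitine, urate and phosphate. Of the 33696 genes in the count files, 35 had a symbol starting with Slc22a or Slc17a, 26 in the first family and 9 in the second. Members with at least 20 unique molecular identifiers (UMIs) over all kept barcodes were described, which left 33, 25 of Slc22 and 8 of Slc17. Slc17a7, with 24 UMIs, was just inside this limit, and Slc22a16 with 4 and Slc17a6 with 1 were outside it. The rule uses symbols and total UMIs and no difference between the groups.

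Cells from the kidneys of 3 sham and 3 DOCA-salt mice, all male C57BL/6 of 8 to 10 weeks, gave 1 single-cell library per mouse, read from the 3′ ends of transcripts (10x Genomics). The DOCA-salt mice lost the left kidney, a week later received a 50 mg pellet of deoxycorticosterone acetate (DOCA, a mineralocorticoid) and drank 1% NaCl for 21 days. The sham mice had sham surgery, normal water and no pellet. Nephrectomy, DOCA and salt therefore cannot be told apart in these groups, and a p-value here measures the spread between these 6 samples. Tubule cells were named from marker genes that included no member, and proximal cells were divided into the early (S1), middle (S2) and late (S3) segment. A sample gave 1984 to 2112 S1 cells and 1554 to 2300 S2 cells but only 12 to 79 S3 cells. Their summed UMIs ran from 15967152 to 29060393 per sample in S1 and S2 and from 115033 to 934681 in S3. Levels are CPM, a gene's UMIs relative to all UMIs of that cell type in a sample after TMM scaling, which serve to compare a gene with itself across cells and groups and not with other genes. The segments were named by scores on their markers, so that marker levels describe the segments and do not test the names. Slc5a2, the S1 glucose carrier, was at 603 to 888 CPM in S1 and at 41.4 to 111 CPM in S2 over all 6 samples, and Cyp7b1, an S3 marker, at 697 to 1620 CPM in S3 and at most 1.87 CPM in S1 and S2. S2 was the least distinct segment: a cluster of 3134 cells named S2 scored 0.592 on S2 markers and 0.707 on S3 markers, under the score of 2 required for S3. The other clusters named S2 scored 1.023 to 1.732 on S2 markers and 0.098 to 0.924 on S3 markers. The S3 marker Slc7a13 was among the leading genes in those of 3417 and 1306 cells, and Slc5a8 in the latter too. Cells named S2 can therefore include cells with S3 traits. Of the markers listed for S2, Cyp4b1 and Cyp2e1 were highest there in sham (means of 1480 and 493 CPM). Kap had means of 45300 CPM in S2 and 74300 CPM in S3, and Slc34a1 of 5120 CPM in S1 and 4090 CPM in S2. Slc1a1, listed for S3, had 433 CPM in S2 and 401 CPM in S3, while the other S3 markers were highest in S3.

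In the proximal tubule, organic anions are taken up from blood by the basolateral carriers OAT1 (Slc22a6) and OAT3 (Slc22a8) in exchange for dicarboxylates and leave through apical carriers, among them NPT1 and NPT4 (Slc17a1, Slc17a3). Urate is reabsorbed by the apical exchanger URAT1 (Slc22a12), cations enter through OCT2 (Slc22a2), and carnitine is recovered by OCTN2 (Slc22a5). Rodents carry further anion carrier genes (Slc22a19 and Slc22a26 to Slc22a30) in a row beside OAT1 and OAT3.

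In the GRCm39 annotation, 10 members lay on chromosome 19, and 8 of them followed each other over 955 kb, from 7650426 to 8605663, with no other protein-coding gene between them: Slc22a19, Slc22a26, Slc22a27, Slc22a28, Slc22a29, Slc22a30, Slc22a8 and Slc22a6. Of these, Slc22a28 and Slc22a30 fell and Slc22a29 rose in DOCA-salt S1 cells (below). The promoters of Slc22a28 and Slc22a30 are shown because both genes, which lie on either side of Slc22a29, fell in the same cells. The RefSeq windows of 250 bases before to 50 after the start of Slc22a28 and Slc22a30 had 288 of 294 aligned bases in common (98.0%), and 6 bases differed. Slc22a29 shared 213 of 263 aligned bases with Slc22a28 (81.0%) and 210 of 257 with Slc22a30 (81.7%). The 250 bases before the start of both genes are printed 5′ to 3′ on the gene's strand, with the bases that differ between both in capitals. The window of Slc22a28 is chr19:8109347-8109596, and that of Slc22a30 is chr19:8382470-8382719, both on the minus strand.
Slc22a28: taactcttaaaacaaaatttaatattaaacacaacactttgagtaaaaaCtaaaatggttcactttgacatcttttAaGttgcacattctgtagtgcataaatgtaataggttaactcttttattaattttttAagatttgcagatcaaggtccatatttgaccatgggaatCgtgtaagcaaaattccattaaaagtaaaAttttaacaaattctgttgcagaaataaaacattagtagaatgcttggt
Slc22a30: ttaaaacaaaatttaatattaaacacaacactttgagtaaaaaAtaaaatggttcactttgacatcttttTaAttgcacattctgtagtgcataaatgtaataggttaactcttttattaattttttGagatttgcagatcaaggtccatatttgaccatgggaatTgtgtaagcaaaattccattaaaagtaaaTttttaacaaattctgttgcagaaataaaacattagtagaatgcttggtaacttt

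In sham kidneys most members were highest by mean in a proximal segment. Slc22a23 and Slc22a29 were highest in S1 cells, with Slc22a29 at 20.3 to 25.6 CPM in S1 and 1.59 to 2.70 CPM in S2. Slc22a6, Slc17a3, Slc22a5, Slc22a30, Slc22a8, Slc22a28 and Slc22a22 were highest in S2. Slc22a6 was at 99.0 to 176 CPM in S1, at 471 to 755 CPM in S2 and at 31.5 to 61.3 CPM in S3. Slc22a8 was at 291 to 397 CPM in S1, 299 to 412 CPM in S2 and 9.78 to 31.5 CPM in S3. The levels in S1 and S2 thus lay close for Slc22a8, as they did for Slc22a28 (below). Slc17a1, Slc22a12, Slc22a18, Slc22a2, Slc22a7, Slc22a19, Slc22a13, Slc22a14, Slc22a4 and Slc22a26 were highest in S3, where the 3 sham samples held 31, 12 and 20 cells. Slc22a26 rests there on 4, 1 and 11 UMIs. The segments come from the same animals and the order is given as a description, without a test. Outside the proximal tubule, Slc22a15, Slc22a21 and Slc17a4 were highest in thin limb cells and Slc22a17, a receptor for lipocalin-2, in connecting tubule and principal cells.

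**Figure D1:**
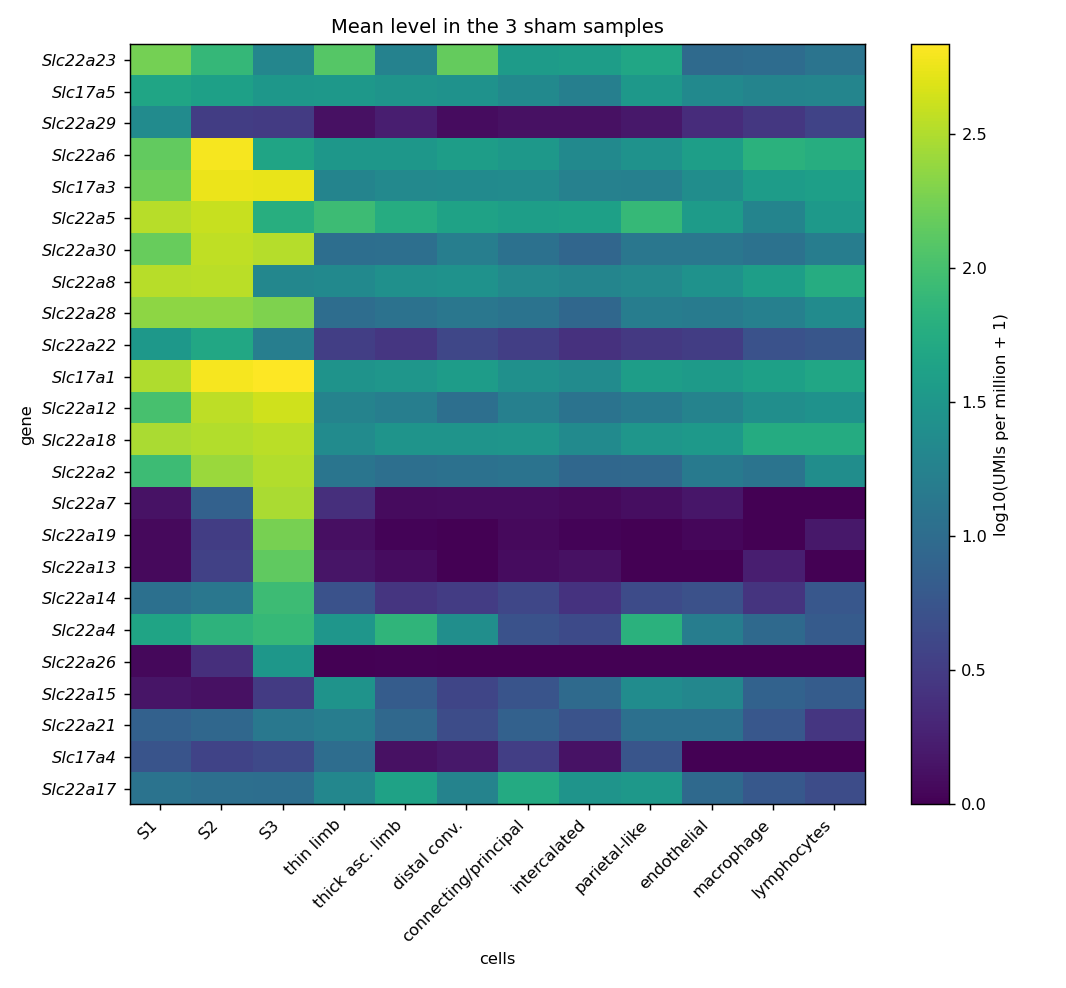
Mean level of the members over the 3 sham samples, as log10 of CPM plus 1, by gene (rows, grouped by the cells where each is highest) and by cells (columns), for members that reach 5 CPM in any column. Slc22a6 is bright in S2 and darker in S3, Slc22a19, Slc22a13 and Slc22a7 are bright in S3 alone, and Slc22a17 is brightest in connecting tubule and principal cells.

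Over S1, S2 and S3 cells as a whole, 5 members rose in DOCA-salt and 0 fell. The riser with the largest change was Slc22a19 (log2 change 1.94 ± 0.24 SE), followed by Slc22a13 (1.42 ± 0.34), Slc22a15 (1.41 ± 0.30), Slc22a29 (0.88 ± 0.15) and Slc22a23 (0.57 ± 0.11). Cyp7b1, the S3 marker, was also higher over these cells (1.23, adjusted p = 0.0237 by edgeR's quasi-likelihood test), and S3 cells were 0.503% of them in sham and 1.72% in DOCA-salt, while in S3 cells themselves Slc22a19 and Slc22a13 gave -0.24 and 0.07. The part of the S3 share in these pooled values was not tested. The adjusted p of the 5 members ran from 0.00325 to 0.0374 (edgeR's quasi-likelihood test, adjusted by Benjamini-Hochberg across every gene tested, threshold 0.05). These are 5 of the 30 members that passed the filter on low counts, beside 5.69% of all 16098 genes tested that rose, 2.45% that fell and 8.14% in either direction. An unadjusted p under 0.05 was found for 14 members, and DESeq2 called 4 as lower, beside 746 of all 16098 genes. The median log2 change was -0.07 over the 30 members and -0.01 over all genes. Leaving out sham 2 gave 5 lower members (Slc17a3, Slc22a18, Slc22a22, Slc22a30 and Slc22a6) and leaving out DOCA-salt 1 gave 1 (Slc22a30). Over all genes 1308 of 16634 fell without sham 2 and 171 of 16313 without DOCA-salt 1, beside 394 of 16098 with all samples. The higher members numbered 3 when DOCA-salt 1, 2 or 3 or sham 1 was left out, fits in which 300 to 523 of all genes rose, beside 916 with all samples.

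The main anion and urate carriers did not pass the threshold of edgeR's quasi-likelihood test in any segment with all 6 samples. Slc22a6 (OAT1), which takes up p-aminohippurate, was at 635, 471 and 755 CPM in S2 cells of sham 1 to 3 and at 479, 502 and 460 CPM in DOCA-salt 1 to 3. The DOCA-salt values lie close to sham 2 and below sham 1 and 3, so the groups overlap (log2 change -0.37 ± 0.17, adjusted p = 0.195 in edgeR's quasi-likelihood test). In S1 cells it was at 147, 99.0 and 176 CPM in sham and 137, 159 and 144 CPM in DOCA-salt (0.06 ± 0.19, adjusted p = 0.908 in the same edgeR test).
Slc22a8 (OAT3), the partner with the broader range of substrates, had 299, 412 and 321 CPM in sham S2 cells against 318, 342 and 295 CPM in DOCA-salt (-0.11 ± 0.15). In S1 cells it had 291, 397 and 323 CPM against 293, 294 and 258 CPM (-0.26 ± 0.14). The groups overlap in both segments.
Slc22a12 (URAT1) in S1 was at 103, 107 and 97.5 CPM in sham against 152, 127 and 133 CPM in DOCA-salt, without overlap (0.42 ± 0.11, adjusted p = 0.059 by edgeR's quasi-likelihood test). It passed the threshold there with DESeq2 (adjusted p = 0.011) and, by edgeR, without sham 2 (0.45, adjusted p = 0.0228). In S2 it was at 356, 364 and 359 CPM against 390, 300 and 324 CPM, which overlap (-0.09 ± 0.13). The change in S2 was lower than that in S1 by 0.52 on the log2 scale (S2 minus S1 -0.52 ± 0.08, adjusted p = 0.000219 in an edgeR model of both segments with the sample as a block). Slc22a6 showed a difference of the same sign between the segments (-0.44 ± 0.08, adjusted p = 0.00186 in that edgeR model).

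The Slc17 carriers NPT1 and NPT4, which pass urate and drugs into the urine, were lower in S2 by value without a call. Slc17a1 was at 584, 687 and 607 CPM in sham S2 cells and 532, 401 and 457 CPM in DOCA-salt, without overlap (-0.44 ± 0.14, adjusted p = 0.0833 by edgeR's quasi-likelihood test). Slc17a3 was at 574, 488 and 618 CPM against 423, 430 and 432 CPM, again without overlap (-0.39 ± 0.13, adjusted p = 0.0855 by the same test). In S1 cells both overlapped: Slc17a1 had 285, 354 and 313 CPM in sham and 289, 256 and 267 CPM in DOCA-salt, and Slc17a3 170, 141 and 178 CPM against 133, 166 and 149 CPM. DESeq2 called both as lower in S2, and without sham 2 edgeR called Slc17a3 there (-0.47, adjusted p = 0.0188).

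Members that fell lay in S1. Of 23 members that passed the filter there, 3 fell and 2 rose, beside 1.55% of all 14492 genes that fell, 3.31% that rose and 4.86% in either direction. Over the 23, 17 changes were below 0, and the median was -0.22 against -0.02 over all genes.
Slc22a30, an anion carrier gene of the rodent row, was at 143, 144 and 156 CPM in sham S1 cells and 83.8, 60.3 and 79.3 CPM in DOCA-salt. Every DOCA-salt sample lies below every sham sample, at 0.505 times the sham level (-0.99 ± 0.13, adjusted p = 0.00461 by edgeR's quasi-likelihood test). Slc22a28, on the other side of Slc22a29 in the row, was at 206, 243 and 220 CPM against 156, 132 and 169 CPM, also without overlap (-0.55 ± 0.12, adjusted p = 0.0383 by the same test).
Slc22a22, a prostaglandin carrier known as OAT-PG, lies apart from them on chromosome 15 and was at 34.4, 30.1 and 29.9 CPM in sham and 16, 20.7 and 16.9 CPM in DOCA-salt. The DOCA-salt level was 0.567 times that of sham, without overlap (-0.82 ± 0.13, adjusted p = 0.00835 by edgeR's quasi-likelihood test).
In S2 cells the same genes showed other values. Slc22a30 was at 314, 390 and 394 CPM in sham and 325, 237 and 288 CPM in DOCA-salt, which overlap (-0.37 ± 0.15). Slc22a28 was at 183, 262 and 233 CPM against 258, 238 and 287 CPM (0.20 ± 0.15). Slc22a22 was at 51.2, 49.4 and 45.5 CPM against 45.7, 52.6 and 43.7 CPM (-0.04 ± 0.11). The change in S2 was above that in S1 by 0.62 ± 0.09 for Slc22a30, 0.77 ± 0.09 for Slc22a28 and 0.78 ± 0.09 for Slc22a22, with adjusted p of 0.000158, 1.68e-05 and 1.68e-05 in the edgeR model of both segments.
Slc22a28 and Slc22a30 had 2.494% and 8.041% of their 60-base words from the last 500 bases of transcripts in common with other members, so that a part of their 3′ reads could be assigned to either or dropped. The call of Slc22a28 was lost under 10 of 17 alternatives: without DOCA-salt 1, 2 or 3 or without sham 1 or 3, with library size only, with mitochondrial genes left out, with segments set from single cells, with the replicate number as a block and without the cells that carried injury markers. The call of Slc22a22 was lost without DOCA-salt 3 and with the replicate number as a block. Leaving out sham 2 gave 5 lower members in S1, adding Slc22a14 and Slc22a4, and leaving out DOCA-salt 3 gave 1. Over all genes 765 of 15047 fell in S1 without sham 2 and 39 of 14883 without DOCA-salt 3, beside 225 of 14492 with all samples.

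**Figure D2:**
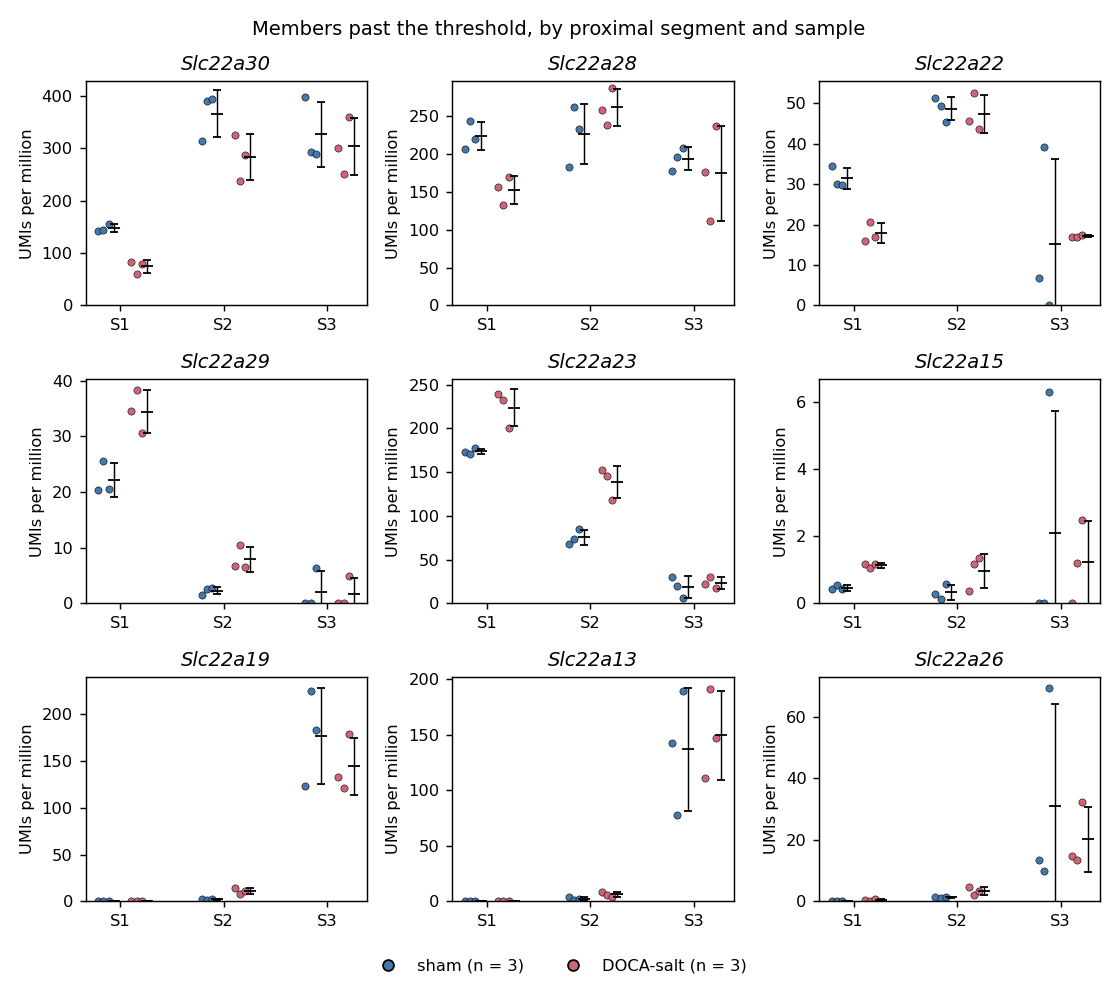
CPM of the 9 members past the threshold in the proximal tubule or a segment, by segment (x axis), with 1 point per sample and the mean ± SD of 3 samples per group beside them, each panel on its own linear axis from 0 where SD bars are cut. Slc22a30, Slc22a28 and Slc22a22 are lower in DOCA-salt S1 cells, Slc22a29 and Slc22a23 are higher in S2, and the S3 points of Slc22a19, Slc22a13 and Slc22a26 overlap between groups.

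Slc22a29, which stands between Slc22a28 and Slc22a30 in the row, moved the opposite way. It was at 20.3, 25.6 and 20.5 CPM in sham S1 cells and 34.5, 38.3 and 30.6 CPM in DOCA-salt, 1.56 times the sham level and without overlap (0.64 ± 0.13, adjusted p = 0.0275 by edgeR's quasi-likelihood test). In S2 cells it was at 1.59, 2.64 and 2.70 CPM against 6.79, 10.5 and 6.48 CPM, 3.51 times the sham level (1.81 ± 0.27, adjusted p = 0.00427 by the same test). The rise in S2 was larger than that in S1 by 1.19 ± 0.18 (adjusted p = 0.000246 in the edgeR model of both segments). Of the 60-base words at the end of its transcripts, 9.43% occur in Slc22a27. Among the listed S1 markers, Slc4a4 rose in S2 cells (0.61, adjusted p = 0.0479 by edgeR's quasi-likelihood test). Gatm, Slc7a7, Slc5a2 and Slc2a2 gave 0.70, 0.51, 0.28 and 0.21 there without a call. Spp2, Slc5a12 and Slc6a19 gave -0.14, -0.17 and -0.41, also without a call. The part of S1 cells among those named S2 was not tested, for Slc22a29 or for Slc22a23 (below).
In S2, 28 members passed the filter, of which 5 rose and 0 fell, beside 6.76% of all 14440 genes that rose, 3.86% that fell and 10.6% in either direction. DESeq2 called 2 as lower, beside 807 of all 14440 genes, and 12 members had an unadjusted p under 0.05. The median change was 0.11 over the members and -0.02 over all genes. The risers were 3 without sham 3, and 4 members fell without sham 2, among them Slc17a3, Slc22a18 and Slc22a6. Over all genes 515 of 14807 rose without sham 3 and 1416 of 14818 fell without sham 2, beside 976 and 558 of 14440 with all samples.

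Slc22a23, a member without a settled substrate, rose in S2 cells, where its sham level was below that of S1. In S2 cells it was at 68.3, 73.6 and 85.3 CPM in sham and 152, 146 and 118 CPM in DOCA-salt, 1.83 times the sham level and without overlap (0.87 ± 0.14, adjusted p = 0.00533 by edgeR's quasi-likelihood test). In S1 cells it was at 173, 171 and 177 CPM against 239, 232 and 200 CPM, without overlap (0.37 ± 0.11, adjusted p = 0.0953 by the same test). The S2 rise exceeded the S1 value by 0.51 ± 0.08 (adjusted p = 0.000516 in the edgeR model of both segments). In S3 the few cells gave 30.7, 19.6 and 6.3 CPM against 22.7, 30.2 and 17.4 CPM.
Slc22a15, a carrier of zwitterions such as ergothioneine, rose in S1 from low levels: 0.416, 0.564 and 0.416 CPM in sham and 1.18, 1.05 and 1.18 CPM in DOCA-salt (1.27 ± 0.29, adjusted p = 0.0403 by edgeR's quasi-likelihood test). Every DOCA-salt sample was above every sham sample there. In S2 the groups overlapped (0.277, 0.147 and 0.565 CPM against 0.377, 1.18 and 1.34 CPM), with a log2 change of 1.57 and no call. No difference between the segments was shown (S2 minus S1 0.27 ± 0.62, adjusted p = 0.836 in the edgeR model of both segments). Lymphocytes, which share the library, had 2.15 to 7.58 CPM of Slc22a15 in sham and 15.1 to 25.4 CPM in DOCA-salt, without overlap, but from 1 to 5 UMIs per sham sample. Its values overlapped in macrophages (3.84 to 10.6 against 2.66 to 6.61 CPM) and in endothelial cells (15.1 to 23.2 against 20.6 to 23.7 CPM).
The call of Slc22a15 in S1 ended without DOCA-salt 1, 2 or 3 or without sham 1 or 3, and those of Slc22a15 and Slc22a29 both ended in the 5 fits that gave 0 risers in S1. Without the cells that carried at least 2 UMIs of injury markers (Havcr1, Vcam1, Krt20, Sox9, Lcn2 and Cp), Slc22a15 was at 0.82 in S1 (adjusted p = 0.227 by edgeR's quasi-likelihood test).

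Of the 10 members highest in S3 cells of sham kidneys, Slc22a19, Slc22a13 and Slc22a26 rose in S2 cells and the others did not pass the threshold there. In S1 Slc22a19 gave 1.33 without a call, and Slc22a13 and Slc22a26 did not pass the filter. No difference between S1 and S2 was shown for them. S2 minus S1 was 0.89 ± 0.51, 0.75 ± 0.66 and -0.27 ± 0.52 (adjusted p = 0.293, 0.52 and 0.802 in the edgeR model of both segments). Slc22a19 (OAT5 of rodents, an anion carrier of the apical membrane) was at 2.94, 1.56 and 2.26 CPM in sham S2 cells and at 14.2, 7.59 and 10.7 CPM in DOCA-salt, 4.73 times the sham level. The lowest DOCA-salt sample lies above the highest sham sample (2.24 ± 0.28, adjusted p = 0.00223 by edgeR's quasi-likelihood test).
Slc22a13 (OAT10), which exchanges urate and nicotinate, was at 3.8, 1.61 and 2.26 CPM against 8.84, 6.17 and 4.40 CPM (1.32 ± 0.34, adjusted p = 0.0376 by the same test). Slc22a26, another gene of the row on chromosome 19, was at 1.38, 1.22 and 1.57 CPM against 4.73, 1.93 and 3.30 CPM (1.27 ± 0.33, adjusted p = 0.0398 by edgeR's quasi-likelihood test). Neither overlapped between the groups.
Slc22a7 (OAT2), another anion carrier highest in S3, overlapped in S2: 6.95, 4.45 and 8.34 CPM in sham against 12.3, 3.58 and 5.93 CPM in DOCA-salt (0.16 ± 0.40). In S3 cells themselves Slc22a19 was at 123, 225 and 183 CPM in sham and 133, 121 and 179 CPM in DOCA-salt, with overlap (-0.24 ± 0.27). The change of Slc22a19 in S3 was below that in S2 by 2.32 on the log2 scale (S3 minus S2 -2.32 ± 0.31, adjusted p = 9.81e-11 in the edgeR model of both segments). Under a limit of 20% on mitochondrial UMIs that difference was -0.99 (adjusted p = 0.573 in the same edgeR model), with S3 sums of sham 1 alone for the sham group. Slc22a13 in S3 was at 143, 78.2 and 189 CPM against 111, 191 and 147 CPM, and Slc22a7 at 211, 97.8 and 586 CPM against 269, 305 and 437 CPM.
The call of Slc22a13 in S2 ended without DOCA-salt 1 or 2 or without sham 3, and that of Slc22a26 without DOCA-salt 1 or 3 or without sham 1 or 3. Slc22a13 shares 16.78% of the 60-base words at its transcript ends with Slc22a13b.

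S3 cells were more frequent in the DOCA-salt libraries by value. They made up 0.706, 0.313 and 0.489% of the S1, S2 and S3 cells in sham 1 to 3 (31, 12 and 20 cells) and 1.93, 2.01 and 1.23% in DOCA-salt 1 to 3 (79, 73 and 46 cells). All DOCA-salt values were above all sham values (mean 0.503 ± 0.197 against 1.72 ± 0.431%, SD, n = 3, two-sided exact permutation p = 0.1, the smallest that 3 against 3 allows). With segments assigned to single cells rather than clusters the S3 shares were 0.292% in sham and 0.744% in DOCA-salt. Shares of S1 were 50.1 ± 2.81% against 53.0 ± 2.77% and of S2 49.4 ± 2.63% against 45.3 ± 2.73% (exact p = 0.3 for both). The part of S3 cells among those named S2 was not tested.
Slc22a19 UMIs were found in 1.58 to 2.83% of sham S2 cells and 7.53 to 12.2% of DOCA-salt S2 cells, at median depths of 7718 to 12298 UMIs. After thinning each cell to 3000 UMIs, which left out 143 to 491 S2 cells per sample, the shares were 0.544 to 0.820% and 2.27 to 3.93%, still apart. In T or NK cells, which should lack the gene, 0 to 0.84% of 109 to 154 cells had a UMI at median depths of 2964 to 4569, and 0 of 114 cells allows a share of up to 2.63%. Thinned to the same depth, T or NK cells were at 0 in the 3 sham samples and at 0, 0.765 and 0.811% in DOCA-salt 1 to 3. The values of DOCA-salt 2 and 3 rest on 1 UMI each, and thinning left out 19 to 58 T or NK cells per sample. A share of 0 in the cells left allows more than 2.63%. The T or NK cells are therefore too few per sample to place the S2 shares of either group against a background. By level, endothelial cells had 0, 0.336 and 0 CPM of Slc22a19 in sham and 0.189, 0 and 0.355 CPM in DOCA-salt, from at most 2 UMIs per sample. Macrophages had 0 CPM in sham and 0.441, 1.01 and 0 CPM in DOCA-salt. These levels lie below that of S2 cells in every sample, and the part of free RNA in S2 was not tested. For Slc22a13 the thinned shares in S2 were 0.547 to 1.02% and 1.30 to 2.35%, and for Slc22a7 they overlapped (1.35 to 2.31% and 1.10 to 3.02%). Before thinning, Slc22a19 UMIs were found in 0.142 to 0.292% of sham and 0.491 to 0.598% of DOCA-salt S1 cells, from 3 to 13 UMIs per sample. Slc22a26 UMIs were found in 0.101 to 0.189% and 0.349 to 0.595% of S1 cells, while those of Slc22a13 overlapped there.
Cyp7b1, the S3 marker, was found in 0.491 to 0.739% of sham and 1.13 to 1.74% of DOCA-salt S2 cells and at 0.159 to 0.254% and 0.330 to 0.397% after thinning, so that the shares did not overlap while its level in S2 overlapped (0.941 to 1.87 against 1.13 to 1.77 CPM). Without the S1 and S2 cells that carried a Cyp7b1 UMI, a choice made after seeing the data, Slc22a19 in S2 was at 2.21 (adjusted p = 0.00247), Slc22a13 at 1.21 and Slc22a26 at 1.30 (edgeR's quasi-likelihood test). A Cyp7b1 UMI was found in 57.5 to 65.2% of DOCA-salt S3 cells, so this step cannot take out every S3 cell among those named S2. Of the 6 listed S3 markers, 2 fell and 0 rose in S2 cells. Slc7a13 was at 348, 373 and 454 CPM in sham and 244, 95.1 and 154 CPM in DOCA-salt (-1.25, adjusted p = 0.025 by the same edgeR test), and Rnf24 at 30.4, 45.6 and 37.7 CPM against 23.4, 16.2 and 24.5 CPM (-0.83, adjusted p = 0.0254 by that test). Atp11a, Slc1a1, Slc5a8 and Cyp7b1 gave -0.54, -0.17, 0.00 and 0.14 there.

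**Figure D3:**
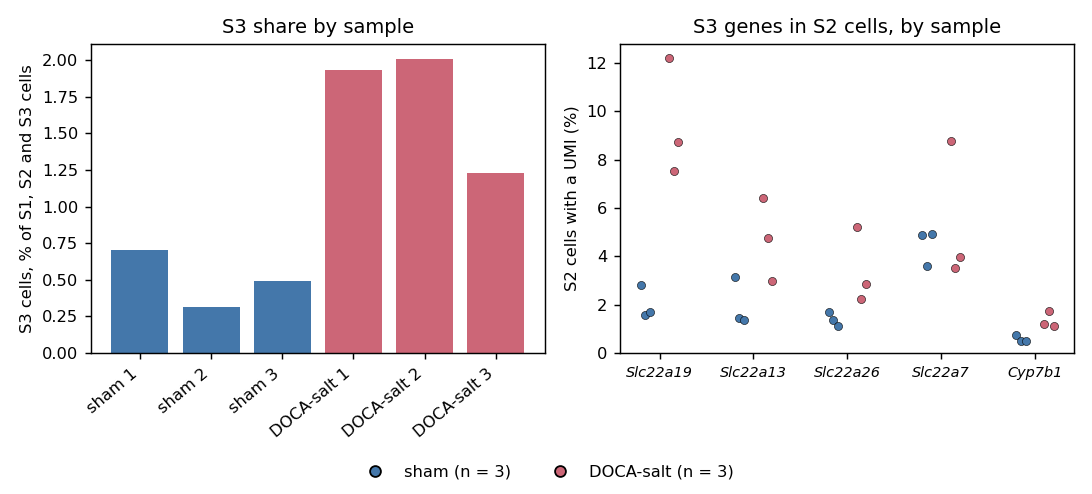
Left, S3 cells as a percentage of the S1, S2 and S3 cells of each sample, with bars from 0. Right, percentage of S2 cells with at least 1 UMI of 4 members of the late segment and of the marker Cyp7b1, with 1 point per sample, where Slc22a19 reads 1.58 to 2.83% in sham and 7.53 to 12.2% in DOCA-salt and Slc22a7 overlaps.

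In S3 cells themselves, 0 of the 16 members that passed the filter were called in either direction, beside 0.255% of all 4709 genes that rose, 0.106% that fell and 0.361% in either direction (edgeR's quasi-likelihood test, 2 members at an unadjusted p under 0.05, DESeq2 0). Slc22a5 was at 88.6, 39.1 and 50.4 CPM in sham S3 cells and 206, 121 and 89.5 CPM in DOCA-salt, without overlap (1.11 ± 0.36, adjusted p = 0.214 by edgeR's quasi-likelihood test). Slc22a14, known for a role in sperm, was at 85.2, 88 and 88.2 CPM against 121, 115 and 104 CPM, also without overlap (0.40 ± 0.27). With 12 to 31 sham cells per sample, a 2-fold change could be missed at this depth.

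The cation and carnitine carriers showed smaller values. Slc22a5 (OCTN2), which recovers carnitine, was at 378, 309 and 342 CPM in sham S1 cells and 297, 303 and 264 CPM in DOCA-salt, without overlap (-0.25 ± 0.12). In S2 cells it was at 373, 397 and 420 CPM against 476, 492 and 371 CPM, with overlap (0.17 ± 0.14). Its change differed between the segments: S2 minus S1 was 0.41 ± 0.10 (adjusted p = 0.0113) and S3 minus S1 was 1.57 ± 0.28 (adjusted p = 8.55e-06), both in the edgeR models with the sample as a block.
Slc22a4 (OCTN1), the carrier of ergothioneine, was at 43.6, 43 and 46.6 CPM in sham S1 cells and 33.5, 33.8 and 38.1 CPM in DOCA-salt (-0.34 ± 0.10, adjusted p = 0.0975 by edgeR's quasi-likelihood test). In S2 cells it was at 71.6, 67.6 and 61.8 CPM against 74.3, 75.6 and 82.2 CPM (0.21 ± 0.11). The groups did not overlap in either segment and lay in opposite order, and the difference in change was 0.54 ± 0.09 (adjusted p = 0.000592 in the edgeR model of both segments).
Slc22a2 (OCT2) was at 81.3, 88.4 and 88.4 CPM in sham S1 cells and 75.8, 69.1 and 76.6 CPM in DOCA-salt, and at 239, 251 and 278 CPM against 224, 180 and 229 CPM in S2 (-0.22 ± 0.10 and -0.28 ± 0.13). Neither overlapped and neither passed the threshold.
Slc22a18, an imprinted member, was at 323, 250 and 320 CPM in sham S1 and 235, 294 and 207 CPM in DOCA-salt S1 cells, and at 350, 235 and 383 CPM against 244, 260 and 216 CPM in S2, with overlap in both. Slc22a14 was at 12.4, 8.21 and 9.80 CPM in sham S1 cells and 5.76, 7.01 and 6.87 CPM in DOCA-salt, without overlap (-0.63 ± 0.18, adjusted p = 0.0801 by edgeR's quasi-likelihood test), and at 12.8, 11.8 and 12.5 CPM against 16.9, 12.2 and 11.2 CPM in S2. Slc22a21 (OCTN3), which shares 19.537% of its end words with Slc22a5 and Slc22a4, had means of 6.63 and 4.76 CPM in S1 and 7.91 and 8.50 CPM in S2.

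The change of a member in S1 and S2 was compared in 1 model of both segments, in which 28 members were tested. The change differed for 11 of them, beside 11.6% of all 15143 genes. In 9 of the 11 the value in S2 was above that in S1 (Slc22a4, Slc22a5, Slc22a14, Slc22a21, Slc22a22, Slc22a23, Slc22a28, Slc22a29 and Slc22a30), and in Slc22a12 and Slc22a6 it was below. No Slc17 member was among the 11. Leaving out 1 sample at a time gave 8 to 11 such members, in fits that called 860 to 2385 of all genes, beside 1755 with all samples. Between S1 and S3 the change differed for Slc22a5, Slc22a14 and Slc22a30, beside 1.9% of all 13508 genes (S3 minus S1 1.57, 1.31 and 1.04), and between S2 and S3 for Slc22a19, beside 1.35% of all 13200 genes. Leaving out DOCA-salt 1, 2 or 3 gave 2 members for S2 and S3, and leaving out sham 1 gave 3. Over all genes these fits called 154, 92, 126 and 106, beside 178 with all samples.

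**Figure D4:**
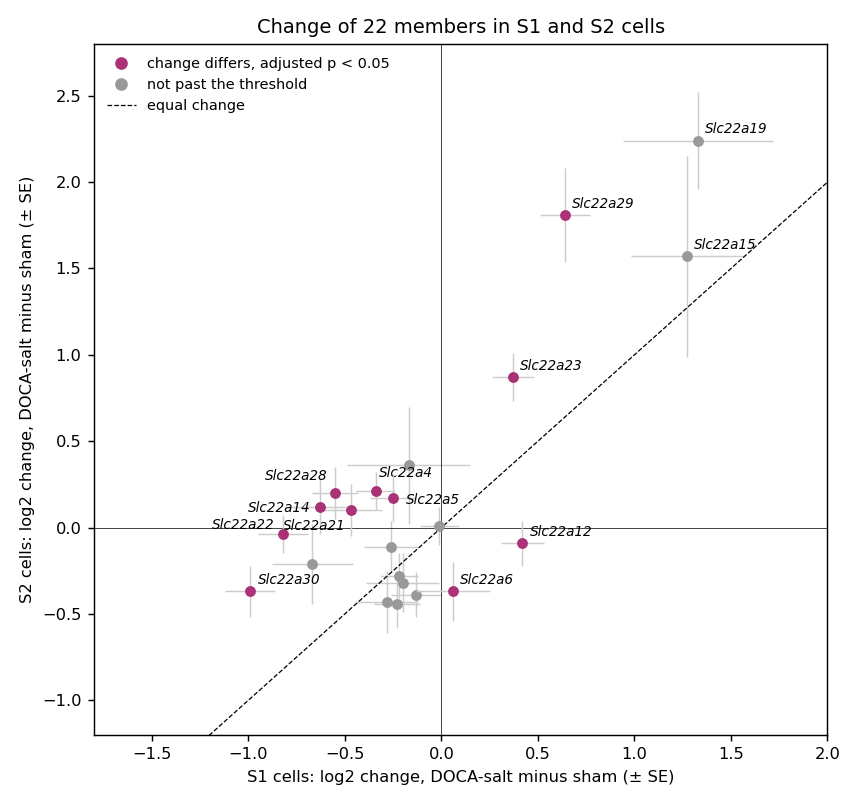
Log2 change (DOCA-salt minus sham) of members tested in both segments, in S1 cells (x axis) and S2 cells (y axis), with SE bars and a dashed line of equal change. Members whose change differs between the segments are purple, and 9 of these 11 lie above the line, while Slc22a12 and Slc22a6 lie below it.

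In the distal nephron, most falls were of members typical of the proximal tubule, at levels that lymphocytes of the same libraries showed too. In distal convoluted tubule cells 5 of 16 tested members fell and 0 rose, beside 2.74% of all 9947 genes that fell, 4.41% that rose and 7.16% in either direction. Slc17a1 was at 28.8, 35.2 and 43.2 CPM in sham and 17.2, 10.9 and 13.9 CPM in DOCA-salt there (-1.37 ± 0.24, adjusted p = 0.00145 by edgeR's quasi-likelihood test), with Slc17a3, Slc22a6, Slc22a8 and Slc22a30 as the others. Lymphocytes, which should lack it, had 54.6, 36.4 and 49.5 CPM of Slc17a1 in sham and 28.7, 24.2 and 32.5 CPM in DOCA-salt, above the distal values in every sample. The part of free RNA in these differences was not tested.
In connecting tubule and principal cells 6 of 18 tested members fell (Slc17a1, Slc17a3, Slc22a2, Slc22a12, Slc22a17 and Slc22a30) and 3 rose (Slc22a4, Slc22a15 and Slc22a23), beside 6.72% of all 12369 genes that fell, 8.34% that rose and 15.1% in either direction. Slc22a17, the lipocalin-2 receptor, was at 53.2, 41.8 and 66.5 CPM in sham and 17, 20.4 and 19 CPM in DOCA-salt, without overlap (-1.51 ± 0.19, adjusted p = 0.000616 by edgeR's quasi-likelihood test). Lymphocytes had at most 4.55 CPM of Slc22a17.
Slc22a23 was at 33, 34.2 and 39.3 CPM in sham and 50.3, 57.6 and 64.4 CPM in DOCA-salt connecting tubule and principal cells, without overlap (0.69 ± 0.14, adjusted p = 0.00946 by the same test), against at most 15.2 CPM in lymphocytes. Slc22a4 was at 3.83, 3.50 and 5.28 CPM against 11.7, 10.9 and 8.57 CPM (1.31 ± 0.27, adjusted p = 0.00902 by edgeR's quasi-likelihood test), but was at -0.73 when doublets were not removed and the cells clustered anew. Slc22a15 was at 4.31, 5.39 and 3.69 CPM against 11.9, 13.2 and 9.52 CPM (1.38 ± 0.26, adjusted p = 0.00575 by edgeR's quasi-likelihood test), within the lymphocyte range in sham and below it in DOCA-salt.
In thick ascending limb cells Slc22a5 fell from 46.5, 64.3 and 59.6 CPM to 35.8, 35.1 and 36.9 CPM (-0.65 ± 0.14, adjusted p = 0.0384 by edgeR's quasi-likelihood test), with the same order in lymphocytes (22.7, 32.7 and 40.9 against 17.2, 21.2 and 19.8 CPM) and endothelial cells (33.4 to 37.7 against 24.8 to 28.8 CPM). It was the only call of 19 tested members there, beside 0.805% of all 12178 genes that fell, 0.714% that rose and 1.52% in either direction. In intercalated cells Slc17a1 alone of 17 tested members fell (-0.90 ± 0.18), beside 3.34% of all 11703 genes that fell, 3.42% that rose and 6.76% in either direction.
Injury markers passed edgeR's quasi-likelihood test in the upward direction in the same distal cells, 6 of 6 tested in connecting tubule and principal cells (median log2 change 2.62), 3 of 4 in the distal convoluted tubule (1.85), 5 of 5 in intercalated cells (2.43) and 1 of 4 in the thick ascending limb (0.72). Of the 12 dissociation genes, 4 rose and 1 fell in the distal convoluted tubule (median 0.54), 0 rose and 4 fell in intercalated cells (-0.64), 1 rose and 0 fell in connecting tubule and principal cells (-0.08), and 0 rose and 2 fell in the thick ascending limb (-0.21). The part of either list in the members' calls was not tested.

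Among single calls, Slc22a30 in connecting tubule and principal cells was lost under 10 of 14 alternatives, Slc17a1 there under 8, Slc22a2 there under 7 and Slc22a5 in the thick ascending limb under 8. The counts of members called moved with sham 2. Among the sham libraries it had the lowest values of several proximal members in lymphocytes (Slc22a6 at 20 CPM against 75.8 and 77.4 CPM in sham 1 and 3). The DOCA-salt libraries had 17.2, 28.7 and 21.2 CPM of Slc22a6 there, and a link between these levels and the counts was not tested. Over all genes the calls moved with the sample left out too. Without sham 2, 275 of 12531 genes rose and 443 fell in the thick ascending limb, and 598 of 10516 rose and 504 fell in the distal convoluted tubule. In connecting tubule and principal cells 1259 of 12756 rose and 1094 fell, and in intercalated cells 723 of 12065 rose and 711 fell. Without sham 3, 46 rose and 52 fell in the thick ascending limb, beside 87 and 98 with all samples. Without sham 2 the members called were 11 in the thick ascending limb, 9 in the distal convoluted tubule, 14 in connecting tubule and principal cells and 7 in intercalated cells. Without sham 3 they were 0, 3, 5 and 0. Without DOCA-salt 1 there were 3 in the distal convoluted tubule and 0 in the thick ascending limb, as in the latter without DOCA-salt 2 or 3, and without sham 1 there were 3 in the distal convoluted tubule. Connecting tubule and principal cells gave 5 without DOCA-salt 2 or 3, and intercalated cells gave 0 without DOCA-salt 3 or sham 1.

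**Figure D5:**
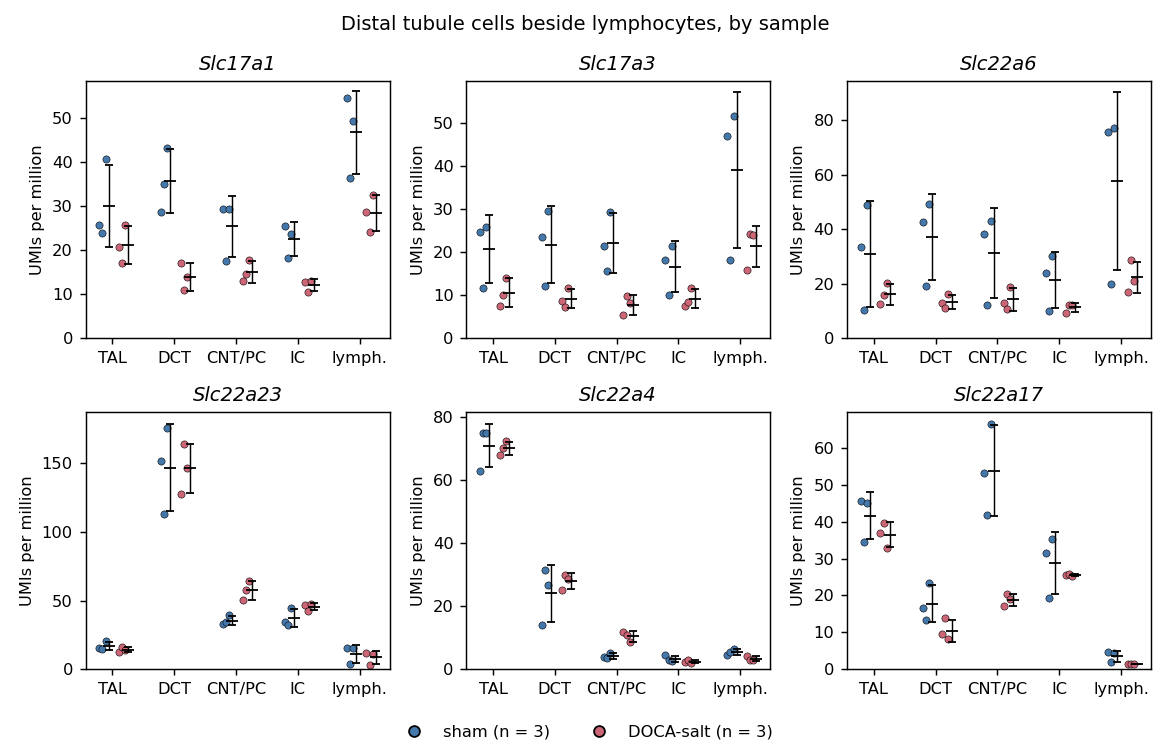
CPM of 6 members in thick ascending limb (TAL), distal convoluted tubule (DCT), connecting tubule and principal (CNT/PC) and intercalated (IC) cells and in lymphocytes, with 1 point per sample and the mean ± SD of 3 samples per group, each panel on its own axis from 0. Slc17a1, Slc17a3 and Slc22a6 in distal cells lie at or below lymphocytes, while Slc22a23 and Slc22a17 in connecting tubule and principal cells lie above them.

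The remaining members were low. Slc17a5 (sialin), the lysosomal exporter of sialic acid, had means of 45.7 and 45.4 CPM in sham and DOCA-salt S1 cells and 40.1 and 40.4 CPM in S2, the smallest change among the members tested there (-0.01 ± 0.10 and 0.01 ± 0.11). Slc17a4 had means of 4.5 and 2.8 CPM in S1. Slc17a9, which loads ATP into vesicles, had means of 0.28 and 0.14 CPM in S1 and 4.57 and 7.16 CPM in lymphocytes. Slc17a2, Slc17a7, Slc17a8, Slc22a3 (OCT3), Slc22a13b, Slc22a20 (OAT6) and Slc22a27 had means of at most 0.912 CPM in S1 and S2 of either group. The vesicular glutamate carriers Slc17a7 and Slc17a8 summed to 24 and 131 UMIs over all kept barcodes.

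Of 36 other genes of organic ion handling (20 carriers and pumps, 4 scaffold proteins and 12 regulators), 4 rose and 3 fell in the proximal tubule, beside the 5.69% and 2.45% of all genes. Slco1a1, an organic anion carrier that depends on androgens in the mouse kidney, had the largest fall: 82.1, 48.2 and 81.9 CPM in sham and 8.35, 3.32 and 5.95 CPM in DOCA-salt (-3.59 ± 0.34, adjusted p = 0.000926 by edgeR's quasi-likelihood test). Abcb1a, a drug efflux pump (-0.87 ± 0.16), and Slco2b1 (-1.04 ± 0.22) fell too.
Prlr, the prolactin receptor, was at 11.6, 13.1 and 8.93 CPM in sham and 57.9, 43.1 and 28.5 CPM in DOCA-salt, without overlap (1.94 ± 0.25, adjusted p = 0.00336 by the same edgeR test). It rose in S1 (0.80), S2 (2.9) and S3 (2.62). Slc13a1, the sulfate carrier of the apical membrane, was at 494, 547 and 608 CPM against 720, 1030 and 901 CPM (0.69 ± 0.16, adjusted p = 0.032 by edgeR's quasi-likelihood test).
Slco4c1 (2.46 ± 0.43) and Abcc3 (1.56 ± 0.40) rose from low levels. Slco4c1 was highest in S3 cells, with means of 52.0 and 99.1 CPM without a call (0.87, adjusted p = 0.374 by edgeR's quasi-likelihood test). Abcc3 was at 0 CPM in sham S3 cells, and its 7, 3 and 2 UMIs in sham 1 to 3 came from S1 and S2. In DOCA-salt it was highest in S3 cells, at 8.43 CPM. Slco4c1 was at most 0.611 CPM by mean in S1 and S2, and the part of the larger S3 share in either gene's rise was not tested. Abcc2 and Abcg2, apical efflux pumps for the anions that OAT1 and OAT3 bring in, gave -0.27 and -0.01, and the scaffold genes Pdzk1 and Pdzk1ip1 -0.17 and 0.15, all without a call. The partners that fell were 6 without sham 2 and 1 without DOCA-salt 3, and those that rose were 2 without DOCA-salt 2 or 3 or without sham 1 or 3.

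Injury markers moved with the groups in the same cells. In the proximal tubule 5 of 7 listed genes rose (Havcr1 4.09, Sox9 4.98, Vcam1 3.35, Spp1 2.58 and Lcn2 2.15 on the log2 scale) and Clu and Krt20 gave 0.70 and 0.99 without a call. Cells were also counted by their UMIs of Havcr1, Vcam1, Krt20, Sox9, Lcn2 and Cp, a list without Spp1 and Clu. Those with at least 2 such UMIs were 0.109 to 0.680% of sham and 3.55 to 7.66% of DOCA-salt S1 and S2 cells. Without them, in an alternative added after seeing the data, Slc22a30 (-0.92), Slc22a22 (-0.70) and Slc22a29 (0.72) kept their calls in S1, Slc22a28 (-0.49, adjusted p = 0.0783 by edgeR's quasi-likelihood test) and Slc22a15 lost theirs, the 5 risers of S2 kept theirs and Slc17a2 joined them (1.53, adjusted p = 0.0457 by edgeR's quasi-likelihood test). Over the proximal tubule 3 risers remained (Slc22a19, Slc22a23 and Slc22a29), in a fit where 677 of all 15932 genes rose. Of 12 genes that respond to dissociation, 0 were called over the proximal tubule (edgeR, 3 at an unadjusted p under 0.05), with a median of -0.31. In S1, the segment of the members that fell, all 12 were below 0 with a median of -0.52 against -0.02 over all genes and 6 at an unadjusted p under 0.05. Ier2 passed the threshold there (-0.54), and Jun (-0.65), Jund (-0.65), Dusp1 (-0.56) and Fosb (-0.50) did not overlap between groups without passing it. The part of dissociation in the falls of S1 was not tested. The mitochondrial share of UMIs was 23.9 to 27.5% in sham and 24.7 to 25.5% in DOCA-salt S1 cells, and 18.2 to 21.6% and 19.6 to 20.6% in S2. The part of injury in the other changes was not tested.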

How the data were processed

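The authors deposited raw UMI counts per gene and barcode (Cell Ranger 9.0.0 per the submitters' processing notes, which also name Seurat 4.0.0 and R 4.0.3, while the file headers give another Cell Ranger release) on GRCm39, for called cells, without normalization. Barcodes with at least 170 genes, 500 UMIs, at most 50% mitochondrial and 5% hemoglobin UMIs were kept, and the highest Scrublet scores were removed at 0.8% per 1000 barcodes. Cells were clustered with scanpy 1.11.5 and python-igraph 0.11.9 (2000 variable genes without members, 30 components, 15 neighbours, Leiden resolution 1) and named from fixed markers. Proximal cells, whose first clusters were mostly of 1 group, were clustered again after centring each gene within each sample and named S1, S2 or S3 by marker scores, and 7548 proximal cells of clusters without a segment and 381 cycling ones were set aside. Library pairs shared 18 to 41 barcodes (at most 0.428%).

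UMIs were summed per sample and cell type and compared with edgeR 4.0.16 (R 4.3.3): filter on low counts, TMM, quasi-likelihood F test, Benjamini-Hochberg adjustment over all genes, threshold 0.05. Differences between segments came from models of both segments with the sample as a block, and shares from exact permutation tests. The S1, S2 and S3 sums held 115033 to 29060393 UMIs per sample. The test was checked on simulated counts. Members with a call or at least 50 CPM in a segment are given by sample, others by means or ranges. Alternatives were DESeq2 1.42.0, its size factors, library size only, no low-count filter, a 20% mitochondrial limit, mitochondrial genes left out, no doublet removal, segments from single cells, the replicate number as a block and leaving out each sample. Members and lists were chosen with earlier results of these data known. Sequences are from RefSeq tables and were matched to GRCm39. Some items are not reported here.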

Additional observations from a re-analysis of the deposited data

Results flagged for a closer look

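Differences in change (DOCA-salt minus sham, log2) between proximal segments drew attention for 11 members between S1 and S2 in edgeR's test of the interaction. S2 minus S1 was -0.52 for Slc22a12 and -0.44 for Slc22a6. It was 0.77 for Slc22a14, 0.56 for Slc22a21, 0.78 for Slc22a22, 0.51 for Slc22a23, 0.77 for Slc22a28, 1.19 for Slc22a29, 0.62 for Slc22a30, 0.54 for Slc22a4 and 0.41 for Slc22a5. S3 minus S1 was 1.31 for Slc22a14, 1.04 for Slc22a30 and 1.57 for Slc22a5. S3 minus S2 was -2.32 for Slc22a19. S3 values rest on 12 to 31 cells per sham sample.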

How the results depend on the processing

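Of the values for single genes, 570 kept direction and side of the threshold under an alternative, 121 lost the call and 1 reversed (Slc22a4 in connecting tubule and principal cells, -0.73 without doublet removal). Members lower over the proximal tubule were 4 with DESeq2 and 1 with DESeq2 size factors, with a 20% mitochondrial limit, with mitochondrial genes left out and with no low-count filter. Over all genes 746 fell there with DESeq2 and 424 to 557 in the other fits, beside 394 in the main fit. Members lower in S2 were 2 with DESeq2, and 1 rose in S3 with no low-count filter. Over all genes 807 fell in S2 with DESeq2, beside 558 in the main fit. In S3 67 of 16306 rose with no low-count filter, beside 12 of 4709. Calls in the thick ascending limb were 2 with DESeq2, 10 with no low-count filter and 0 with library size only and without doublet removal. Over all genes 111 rose and 133 fell there with DESeq2, and 283 and 390 of 21646 with no low-count filter. Library size only gave 92 and 102 and no doublet removal 86 and 102, beside 87 and 98 of 12178 in the main fit. Members called in the distal convoluted tubule were 3 with the 20% limit and 8 without doublet removal, and in intercalated cells 0 with the 20% limit and 6 with no low-count filter. Over all genes 405 of 6859 rose and 312 fell in the former with the 20% limit, and 454 of 10248 and 343 without doublet removal. In intercalated cells 258 of 9743 rose and 243 fell with the 20% limit, and 788 of 21425 and 717 with no low-count filter. Members whose change differs between S1 and S3 were 1 with the 20% limit, where S3 kept sham 1 alone of the sham samples, assumed to vary like the others. Between S2 and S3 they were 2 with library size only and 2 without cells with injury markers, a choice made after seeing the data that also gave 3 higher members and 2 higher partners over the proximal tubule. Over all genes the change between S2 and S3 differed for 159 with library size only and 139 without those cells, beside 178. Without those cells 677 of 15932 genes rose over the proximal tubule, beside 916 of 16098.

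Replicate numbers did not pair the samples: same-numbered samples correlated at -0.26, -0.67 and -0.28 over the proximal tubule. With the replicate number as a block, members over the proximal tubule were 2 higher, those in S1 were 1 lower and 0 higher, and the calls were 0 in the thick ascending limb, 5 in connecting tubule and principal cells and 0 in intercalated cells. Partners were then 1 lower and 1 higher. Over all genes 283 rose and 61 fell over the proximal tubule with that block, beside 916 and 394, and 148 and 36 in S1, beside 480 and 225. In the thick ascending limb 23 rose and 23 fell, beside 87 and 98. Connecting tubule and principal cells gave 597 and 365, beside 1032 and 831, and intercalated cells 128 and 106, beside 400 and 391.

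Leaving out 1 sample at a time gave 3 to 5 higher and 0 to 5 lower members over the proximal tubule, 0 to 3 higher and 1 to 5 lower in S1, 3 to 5 higher and 0 to 4 lower in S2, and 0 in S3. It gave 0 to 11 calls in the thick ascending limb, 3 to 9 in the distal convoluted tubule, 5 to 14 in connecting tubule and principal cells and 0 to 7 in intercalated cells. Partners were 2 to 5 higher and 1 to 6 lower. Over all genes of the proximal tubule, 300 to 1368 rose and 59 to 1308 fell in these fits. In S1 170 to 995 rose and 39 to 765 fell, and in S2 393 to 1398 and 119 to 1416. The thick ascending limb gave 25 to 275 and 26 to 443, and the distal convoluted tubule 282 to 598 and 121 to 504. Connecting tubule and principal cells gave 667 to 1259 and 423 to 1094, and intercalated cells 180 to 723 and 126 to 711. Changes differed for 8 to 11 members between S1 and S2, 2 to 4 between S1 and S3 and 1 to 3 between S2 and S3. Over all genes they differed for 860 to 2385, 104 to 218 and 92 to 223. The S3 share differed by 1.08 to 1.47 percentage points. With segments from single cells it was 0.292% in sham and 0.744% in DOCA-salt, a smaller difference. The cause of these changes was not tested. No cluster took the injured tubule name, so that result was not run. Depth limits S3 above all.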

Other observations

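Outside the cell types compared above, Slc22a23 in thin limb cells was at 114, 128 and 126 CPM in sham 1 to 3 and 195, 284 and 230 CPM in DOCA-salt 1 to 3. In cells with markers of the parietal epithelium, Slc22a23 was at 34.5, 56.3 and 47.8 CPM against 77.3, 83.2 and 95.3 CPM, and Slc22a17 at 25.1, 29.7 and 39.4 CPM against 13, 14.2 and 14.1 CPM. The groups do not overlap in these 3 sets of values, which were picked from the members and are given without a test. Other members did not overlap either, among them Slc17a4, Slc22a14, Slc22a21 and Slc22a30 in thin limb cells. In the parietal cells Slc17a3, Slc22a2, Slc22a4 and Slc22a13 were among them. Over all genes, edgeR called 63 of 11605 higher and 23 lower in thin limb cells. It called 885 of 11677 higher and 973 lower in the parietal cells.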
